A study of Mus musculus with 47 samples.

Results

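Nucleosome signal at CLK:BMAL1 binding sites was compared between the middle of the light and the middle of the dark in livers that lack BMAL1. The 8 livers came from Bmal1-/- mice, 4 taken at ZT06 and 4 at ZT18, where ZT is the number of hours after lights on. They are 8 of the 47 libraries of the series and were chosen by genotype and time, with earlier results of these data known. The groups are Bmal1-/- at ZT06 (replicates 5, 8, 9 and 10), Bmal1-/- at ZT18 (the same 4 numbers), wild type at ZT06 (replicates 11, 12, 26 and 27) and wild type at ZT18 (these 4 numbers again). Per the labels, all were adult C57BL/6 mice held in 12 h of light and 12 h of dark, and the livers were fixed with formaldehyde before nuclei were digested with micrococcal nuclease. The libraries carry BM or WT in their titles, which were read as the Bmal1-/- and wild-type mice of the study's design. The labels used here state neither how the Bmal1 allele was made nor the sex of the mice. The signal is averaged over sites, so the Bmal1 gene itself was not analysed here.

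BMAL1 pairs with CLK (CLOCK), and the dimer binds E-box motifs and switches on the negative regulators of the circadian clock together with many rhythmic liver genes. In mouse liver the dimer occupies its sites mainly during the light, and CLK does not bind stably without BMAL1. Micrococcal nuclease cuts the linker DNA between nucleosomes and spares the DNA wrapped around them, so a dip in signal marks a site that yields few nucleosome-sized fragments. The same contrast of times in Bmal1-/- liver therefore asks whether nucleosome signal at the sites changes over the day when the dimer is absent.

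Each library has a deposited profile over a 3 kb window for each of 27 sets of ChIP-seq peaks, at 300 positions 10 bp apart. A further set, gene body peaks outside introns, was obtained by subtraction, which makes 28. Relative central signal is the mean signal within 150 bp of the window middle in percent of the flank, the mean beyond 1000 bp on both sides. A lower value is a deeper trough. Relative depth ran from 1.06 to 1.58 in the 8 livers, on a scale where the shallowest of the 47 libraries is 1. Each position near the middle of the all-peak profile rested on 28576 to 35937 fragments, a counting error of 0.528% to 0.592%, so the spread between mice over all peaks is many times the counting error. For the 583 TSS peaks the counting error was 1.43% to 1.63%, and it is larger in smaller sets.

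Over all 3216 peaks, Bmal1-/- livers had a trough at ZT06 and at ZT18, and its depth did not differ between the times beyond the spread between mice. At ZT06 relative central signal was 70.5%, 72.6%, 84.4% and 81.7% in replicates 5, 8, 9 and 10. At ZT18 it was 75.3%, 68.2%, 79.1% and 82.1% in the same order. The groups overlapped almost fully, with replicates 9 and 10 high and replicates 5 and 8 low at each time. The means were 77.3% ± 6.79 at ZT06 and 76.2% ± 5.99 at ZT18 (SD, n = 4 mice each). The difference, ZT06 minus ZT18, was 1.12 percentage points with a 95% interval of -11.6 to 16.2 (exact two-sided permutation p = 0.8286). The 70 assignments of 8 mice to 2 groups of 4 allow no p below 0.0286. Of the 4 replicate numbers, 2 were higher at ZT06.

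**Figure D1:**
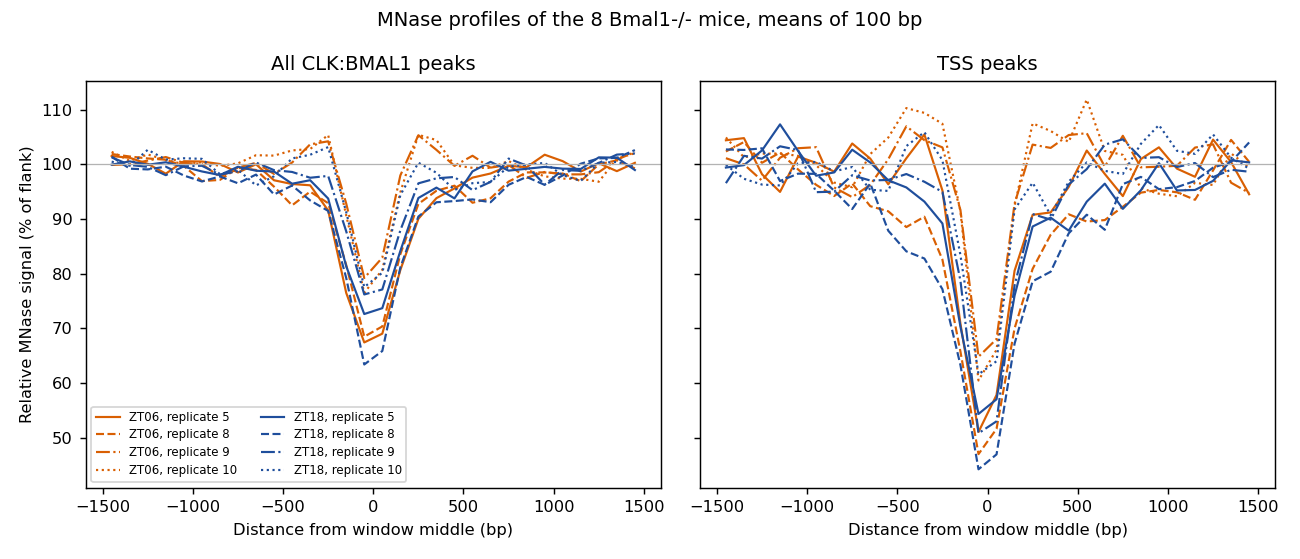
MNase signal in percent of the flank (vertical axis, means over 100 bp) against distance from the window middle in bp, for all peaks (left) and TSS peaks (right); each line is 1 Bmal1-/- mouse, orange at ZT06 and blue at ZT18, with a line style per replicate number. From -100 to 0 bp of the all-peak profile the mice lay between 67.4% and 79.2% at ZT06 and between 63.4% and 77.5% at ZT18, and the lines separate by replicate number more than by time.

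The wild-type livers gave another picture on the same measure. They had 65.97%, 63.03%, 64.9% and 67.2% at ZT06, and 70.4%, 73.1%, 74.6% and 72.3% at ZT18, in replicates 11, 12, 26 and 27. All 4 wild-type mice at ZT06 lay below all 4 at ZT18, and their means differed by -7.34 percentage points (95% interval -11.6 to -3.21, exact permutation p = 0.0286). The Bmal1-/- interval includes this wild-type value. The ZT06 minus ZT18 difference was 8.46 percentage points greater in Bmal1-/- than in wild type, with an interval of -0.33 to 15.4 (exact permutation p = 0.0571). Here and below, exact tests between genotypes use 1 difference per replicate number; the labels do not say what a shared number stands for, and the p and interval depend on which livers share one.

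No peak set gave a call between the times in Bmal1-/- livers. Of 28 sets, 0 had an exact permutation p under 0.05 (0.0%), and in 0 sets did the ZT06 and ZT18 mice fail to overlap. The exact p ran from 0.429 to 1.0, and every adjusted p was 1.0. The difference in means was above 0 in 20 sets and below 0 in 8, with a median of 1.22 percentage points and a range of -2.59 to 4.81. The same test in wild type called 18 of 28 sets (64.3%), all with lower signal at ZT06 (exact permutation p = 0.0286 and adjusted p = 0.0444 each). The wild-type means were lower at ZT06 in 28 of 28 sets, by -1.78 to -17.8 percentage points. The wild-type difference lay outside the 95% interval of Bmal1-/- in 8 of 28 sets. The sets share peaks with each other, so these counts are not counts of independent results.

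**Figure D2:**
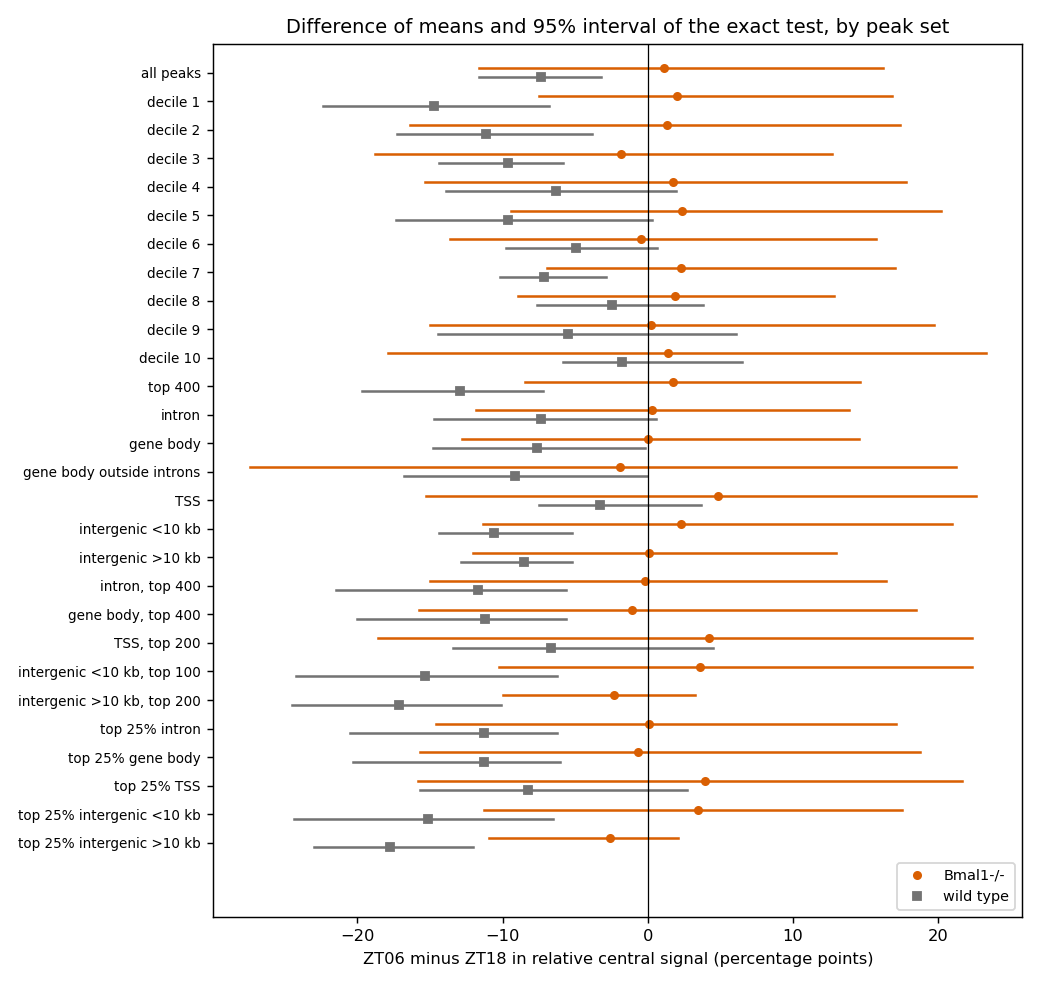
ZT06 minus ZT18 in relative central signal (percentage points, horizontal axis) for each of the 28 peak sets (rows); orange circles are Bmal1-/- and grey squares wild type (n = 4 mice per genotype and time), and lines are 95% intervals from the exact permutation test. All 28 Bmal1-/- intervals include 0, with means from -2.59 to 4.81, while all 28 wild-type means lie below 0.

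The first decile of the peak list, 322 peaks, gave the genotypes unlike values at ZT06. In Bmal1-/- livers relative central signal was 67.999%, 68.3%, 82.7% and 80.7% at ZT06, and 75.3%, 65.9%, 74.8% and 75.5% at ZT18, in replicates 5, 8, 9 and 10. The ZT06 mice fell on both sides of the ZT18 mice. The means were 74.9% ± 7.88 at ZT06 and 72.9% ± 4.67 at ZT18 (SD, n = 4 mice each). ZT06 minus ZT18 was 2.04 points, within an interval of -7.52 to 16.8 (exact permutation p = 0.629). Wild-type livers had 56.3% ± 3.65 at ZT06 and 71.02% ± 2.85 at ZT18 (SD, n = 4 mice each). Their ZT06 minus ZT18 value was -14.7 points (exact permutation p = 0.0286). It lies outside the Bmal1-/- interval. The difference between times was 16.8 percentage points greater in Bmal1-/- than in wild type, with an interval of 3.88 to 26.3 (exact permutation p = 0.0286). Adjusted over 28 sets, the exact permutation p did not pass, at 0.0727, while limma over the 16 livers without pairing gave an adjusted p of 0.0165. The limma value was 0.0614 without wild-type replicate 12 at ZT06, and 0.00278 to 0.0489 without any other 1 liver. The exact permutation p was 0.0571 without wild-type number 11, 12, 26 or 27, with differences of 15.5 to 17.9.

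In the last decile of the list Bmal1-/- mice spread further apart. Relative central signal was 67.1%, 69.7%, 84.6% and 90.996% at ZT06, and 72.3%, 67.7%, 81.8% and 84.98% at ZT18. Replicate 10 was the highest and replicates 5 and 8 the lowest pair at each time. The difference in means was 1.41 percentage points, with an interval of -17.9 to 23.3 (exact permutation p = 0.8286). Wild type had a difference of -1.78 there (exact permutation p = 0.486), and the genotypes differed by 3.19 percentage points (exact permutation p = 0.457).

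**Figure D3:**
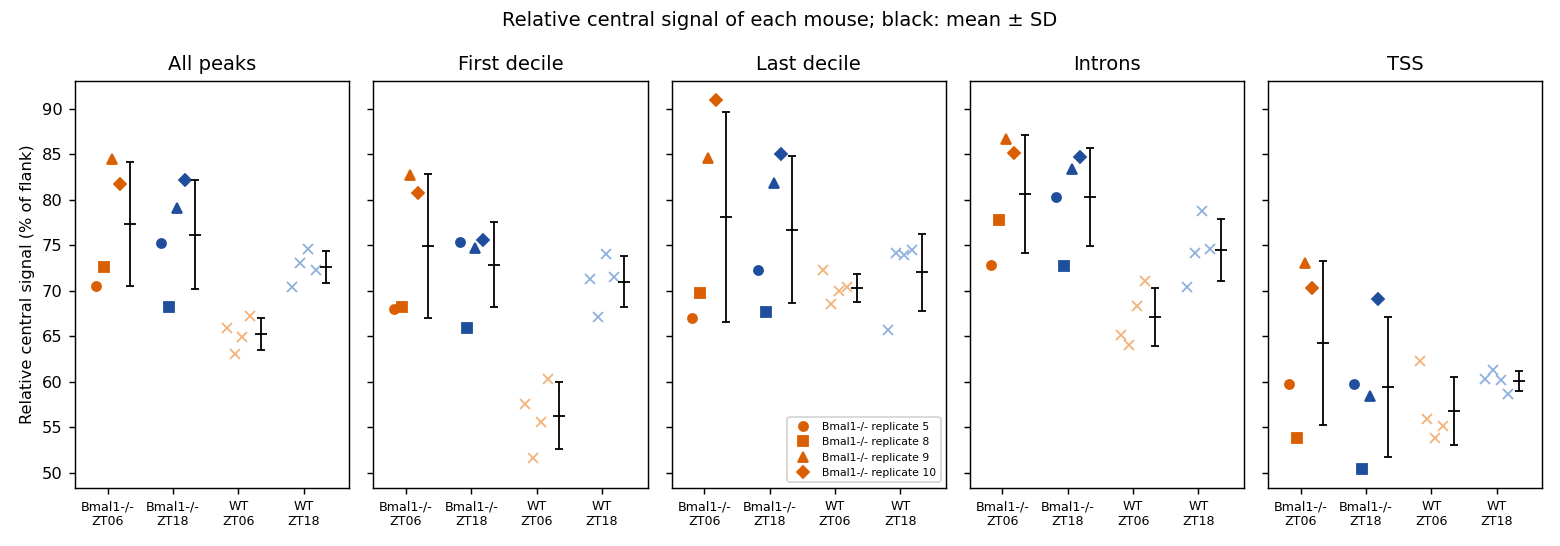
Relative central signal in percent of the flank (vertical axis) of each mouse in 5 peak sets (panels), with Bmal1-/- at ZT06 and ZT18 to the left of wild type (WT) at ZT06 and ZT18; symbols mark the Bmal1-/- replicate numbers, crosses are wild-type mice, and black bars are means ± SD (n = 4 mice). The Bmal1-/- groups overlap between times in all 5 sets, and the wild-type groups are apart in the first decile, at 56.3% and 71.02%.

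Between these ends, the difference between times in Bmal1-/- livers showed no trend along the list. It was above 0 in 8 of 10 deciles and ran from -1.82 in the third decile to 2.37 in the fifth, with 0 of 10 at an exact permutation p under 0.05. The slope of relative central signal over the deciles was -0.47, 0.35, 0.033 and 0.12 percentage points per decile at ZT06 and -0.16, -0.0021, -0.029 and 0.13 at ZT18, in replicates 5, 8, 9 and 10. Both groups straddled 0. The mean slopes were 0.0099 ± 0.348 at ZT06 and -0.016 ± 0.121 at ZT18 (SD, n = 4 mice each; exact permutation p = 0.886). In wild type the slope was 1.05 ± 0.208 at ZT06 and -0.13 ± 0.34 at ZT18 (SD, n = 4 mice each), so the trough deepened toward the top of the list at ZT06 (exact permutation p = 0.0286 for the difference between times of 1.18). The change of slope between times differed between the genotypes by -1.15 percentage points per decile (exact permutation p = 0.0286). Without any 1 replicate number of either genotype this value was -1.26 to -1.04, with the same exact p.

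Peaks at transcription start sites (TSS), where promoters are usually depleted of nucleosomes, had the deepest trough of the genomic classes and also the greatest difference in means between the times. The 583 TSS peaks had 59.8%, 53.8%, 73.1% and 70.3% relative central signal at ZT06, and 59.8%, 50.4%, 58.5% and 69.1% at ZT18, in Bmal1-/- replicates 5, 8, 9 and 10. Each number was higher at ZT06, replicate 5 by 0.028 and replicate 9 by 14.6 percentage points, yet the groups overlapped over most of their range. The means were 64.2% ± 9.01 at ZT06 and 59.4% ± 7.66 at ZT18 (SD, n = 4 mice each). ZT06 exceeded ZT18 by 4.81 points, with an interval of -15.3 to 22.6 (exact permutation p = 0.429). Without replicate 9 at ZT06 the difference was 1.80, and without replicate 8 at ZT06 it was 8.29. In wild type the difference was -3.32 (exact permutation p = 0.143), and between genotypes it was 8.13 (exact permutation p = 0.0857). The lowest point of the TSS profile was at -15 bp in 4 of 4 Bmal1-/- mice at ZT06 and at -5 bp in 4 of 4 at ZT18, which is 1 step of the profile. It was at -5 or -15 bp in wild type at ZT06 and at -15 to 5 bp in wild type at ZT18. This feature was singled out after its values were seen and was not tested.

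The 1412 intron peaks, 43.9% of the list, had a shallower trough than TSS peaks and nearly equal means at both times. Relative central signal was 72.8%, 77.7%, 86.6% and 85.2% at ZT06, and 80.2%, 72.7%, 83.4% and 84.7% at ZT18. Replicate 5 was lowest at ZT06 and replicate 8 at ZT18. The difference in means was 0.32 percentage points with an interval of -11.9 to 13.9 (exact permutation p = 0.914). Intron peaks exceeded TSS peaks in each of the 8 livers, by 13.04 to 23.9 percentage points at ZT06 and by 15.6 to 24.9 at ZT18. The gap averaged 16.3 ± 5.11 at ZT06 and 20.8 ± 3.94 at ZT18 (SD, n = 4 mice each; difference -4.49, exact permutation p = 0.229).

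The other classes likewise gave no call. Gene body peaks outside introns, 6.56% of the list, had 77.9%, 69.8%, 86.7% and 89.1% at ZT06, and 80.5%, 67.8%, 85.7% and 97.2% at ZT18. Replicate 10 at ZT18 thus had almost no trough there, its signal lying under 90% of the flank over 60 bp only. The difference in means was -1.92 percentage points and had the widest interval of the 28 sets, -27.4 to 21.2 (exact permutation p = 0.857). Intergenic peaks within 10 kb of a gene (9.14% of the list) averaged 79.4% ± 8.58 at ZT06 and 77.1% ± 7.17 at ZT18 (SD, n = 4 mice each; difference 2.26, exact permutation p = 0.743). In wild type these peaks differed by -10.6 percentage points, and the genotypes differed by 12.8 (exact permutation p = 0.0286 for both; for the genotypes adjusted p = 0.0727, and exact p = 0.0571 without replicate 9). Intergenic peaks beyond 10 kb (717 peaks) averaged 78.8% ± 6.40 at ZT06 and 78.7% ± 4.84 at ZT18 (SD, n = 4 mice each; difference 0.12, exact permutation p = 1.0).

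The set with the most negative difference was the top 25% of the intergenic peaks beyond 10 kb. It had 69.9%, 76.9%, 80.5% and 81.3% at ZT06, and 79.5%, 79.2%, 79.5% and 80.9% at ZT18, in replicates 5, 8, 9 and 10. The ZT18 mice were tightly grouped (SD 0.753, the smallest of the 28 sets), and the ZT06 mice reached lower and slightly higher. The difference of -2.59 percentage points had an interval of -10.96 to 2.08 (exact permutation p = 0.429). With the centre taken within 50 bp it was -6.81 (exact permutation p = 0.0571). In wild type the same set had the greatest difference of all, -17.8 percentage points, and the genotypes differed by 15.2 with an interval of 5.17 to 21.8 (exact permutation p = 0.0286, adjusted p = 0.0727). Limma without pairing gave an adjusted p of 0.0183. The exact permutation p was 0.0571 without wild-type number 11, 12, 26 or 27, with differences of 14.2 to 16.2.

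Across all sets, the ZT06 minus ZT18 difference was greater in Bmal1-/- than in wild type in 28 of 28. The exact permutation p was under 0.05 in 11 of them (39.3%) and the adjusted p in 0 (0.0%), the smallest being 0.0727. The 11 sets were the first, second and seventh deciles, the top 400 peaks, all intergenic peaks within 10 kb and 6 of the sets named as the top of gene bodies or of intergenic peaks. Each of the 11 stands at the smallest exact p that the design allows. For such a set the adjusted p depends on how many of the 28 sets have a low p, not on the size of its own difference. In wild type, where 18 sets stood at the smallest p, it was 0.0444. The count was lower without any 1 wild-type replicate number, each a pair of livers, being 5 without number 12 and 6 without 11, 26 or 27. These counts of 5 and 6 lie close together and do not single out a wild-type number. With 3 against 4 numbers the test has 35 assignments instead of 70. The same holds without 1 Bmal1-/- number, where the count reached 16. Why the count was lower without a wild-type number was not tested. Limma over the 16 livers without pairing called 6 of 28 sets at an adjusted p under 0.05 (21.4%). These were the first decile, the top 400 peaks, and the top sets of both intergenic classes, with adjusted p of 0.0165 to 0.0343. That fit pools the spread over sets that share peaks and livers as if they were independent, which can make its p too small. Its count was 0 without wild-type replicate 12 at ZT06, 1 without Bmal1-/- replicate 5 at ZT18, 13 without Bmal1-/- replicate 5 at ZT06, and 2 to 11 without any other 1 liver.

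Position by position, the ZT06 and ZT18 profiles of Bmal1-/- livers also gave no call. A limma fit over the 27 deposited sets and 300 positions called 0 of 8100 rows at an adjusted p under 0.05 (0.0%), and the adjusted p was 0.9999 in each set at its position of smallest p. At an unadjusted p under 0.05 3.2% of the rows passed, 2.06% higher and 1.14% lower at ZT06. Within the all-peak profile the position of smallest p was at 505 bp, with 98.3% at ZT06 and 94.7% at ZT18 (limma unadjusted p = 0.202). There was no position of the all-peak, intron or TSS profile with an unadjusted p under 0.05. Within 150 bp of the middle of the all-peak profile, limma's 95% interval extended on average 10.95 percentage points to either side. The largest difference there was 2.70 percentage points. In a fit of the 16 livers of both genotypes, limma called 39 rows in wild type (0.481%), all within 150 bp of the middle and lower at ZT06, and 0 in Bmal1-/- (0.0%; 341 rows at an unadjusted p under 0.05). The difference between genotypes was called at 2 rows (0.0247%), at 45 and 55 bp in the top 25% of intergenic peaks within 10 kb (adjusted p = 0.0346 and 0.0283). This fit of 16 livers gives each row 1 spread for both genotypes. Over all peaks within 150 bp, the SD between Bmal1-/- mice was 6.85 points at ZT06 and 6.12 at ZT18. In wild type it was 2.59 and 2.32. A shared spread can make p too small in Bmal1-/- and too large in wild type.

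**Figure D4:**
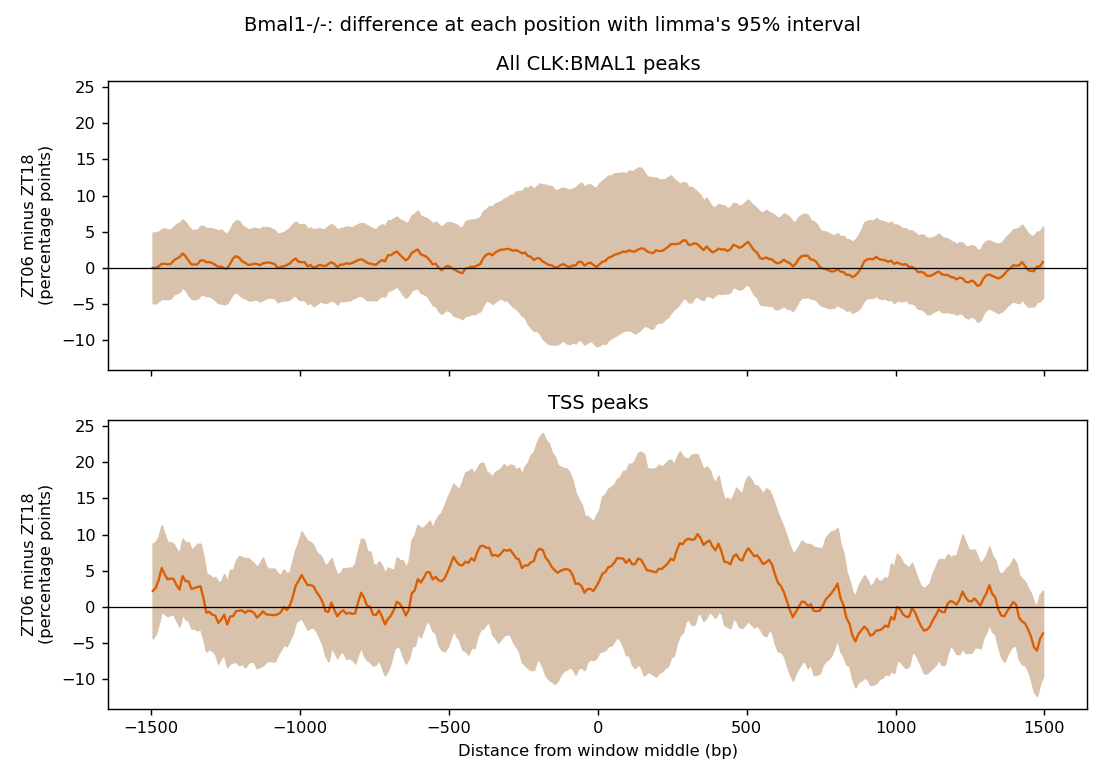
ZT06 minus ZT18 in relative MNase signal (percentage points, vertical axis) at each position against distance from the window middle in bp, in Bmal1-/- livers (n = 4 mice each), for all peaks (top) and TSS peaks (bottom); the line is the difference in means and the band limma's 95% interval. The band includes 0 at all positions of both profiles. For all peaks it is widest around the middle, where it extends on average 10.95 points to either side, and for TSS peaks it is widest at -165 bp, at 16.3 points.

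With all mice kept, no tested measure of the form of the trough gave a call between the times. The lowest point of the all-peak profile, over 5 neighbouring positions, was 71.3% ± 6.05 at ZT06 and 71.03% ± 6.61 at ZT18 (SD, n = 4 mice each; difference 0.299, exact permutation p = 0.971). The stretch under 90% of the flank was 480, 410, 230 and 270 bp wide at ZT06, and 420, 470, 320 and 260 bp at ZT18, in replicates 5, 8, 9 and 10. Replicates 9 and 10 thus had the narrow troughs and replicates 5 and 8 the wide ones at each time. The shoulder, from 150 to 1000 bp on both sides, was 98.3% ± 2.89 at ZT06 and 96.97% ± 1.97 at ZT18 (SD, n = 4 mice each; difference 1.31, exact permutation p = 0.486). Its mean was above that of ZT18 in 23 of 28 sets, with 0 called (0.0%). Right minus left within 1000 bp was 0.281 ± 0.468 percentage points at ZT06 and -0.428 ± 0.489 at ZT18 (SD, n = 4 mice each; difference 0.709, exact permutation p = 0.114). Without replicate 5 at ZT18 it was 0.947 (exact permutation p = 0.0286). On the authors' own scale, flank signal was 6.69 ± 0.307 at ZT06 and 6.64 ± 0.315 at ZT18 (exact permutation p = 0.8), and central signal was 5.17 ± 0.434 and 5.06 ± 0.555 (SD, n = 4 mice each; exact permutation p = 0.743).

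Within each time the Bmal1-/- mice split the same way in most sets. Replicates 9 and 10 both lay above replicates 5 and 8 in 28 of 28 sets at ZT06 and in 24 of 28 at ZT18, and in 10 of 10 and 7 of 10 deciles. This split was singled out after its values were seen. All sets come from the same 8 livers and many share peaks, so these counts are not independent. The pattern extended past the trough: from 200 to 400 bp on both sides, all-peak signal was 92.9%, 93.9%, 103.9% and 104.5% at ZT06, and 95.1%, 92.1%, 97.3% and 100.9% at ZT18, in replicates 5, 8, 9 and 10. At this distance replicates 9 and 10 both lay above replicates 5 and 8 in 24 of 28 sets at ZT06 and in 20 of 28 at ZT18. Replicates 9 and 10 were both above the flank in 22 of 28 sets at ZT06 and in 8 of 28 at ZT18, and replicates 5 and 8 both below it in 21 and 27. Replicate 5 was higher at ZT06 than at ZT18 in 6 of 28 sets, replicate 8 in 24, replicate 9 in 24 and replicate 10 in 16. Over the 10 deciles replicate 5 was higher at ZT06 in 0 and replicate 8 in 10. Each of these counts rests on the same 2 livers, 1 at each time, and thus repeats 1 contrast. At these times relative depth moved with this split: it was 1.38, 1.58, 1.18 and 1.21 at ZT06 and 1.304, 1.38, 1.19 and 1.06 at ZT18. At ZT02 all-peak signal was 86.3% and 82.7% in replicates 9 and 10, against 79.8% and 74.1% in replicates 5 and 8. Relative depth there was 1.07, 1.83, 1.24 and 1.39 in replicates 5, 8, 9 and 10, so replicate 5 was the shallowest. At ZT14 replicates 9 and 10 were again the higher pair, and replicate 5 was again the shallowest, at 1.16. The part of depth in the split was not tested.

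The spread between mice was confined to neither time. The SD between Bmal1-/- mice, averaged over positions of the all-peak profile within 150 bp, was 6.85 percentage points at ZT06 and 6.12 at ZT18, against 2.59 and 2.32 in wild type. From 150 to 500 bp it was 5.83 at ZT06 and 3.65 at ZT18 in Bmal1-/-, and beyond 1000 bp it was 1.26 and 1.23. Each profile is scaled to its own mean beyond 1000 bp, so a small SD there is partly set by the scaling. The difference in spread between genotypes was not tested.

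The other 4 times place the contrast in the day. Replicate 5 had its lowest all-peak value at ZT06 (70.5%) and its highest at ZT22 (87.5%). Replicate 8 ranged from 68.2% at ZT18 to 76.8% at ZT14 and has no library at ZT22. Replicate 9 ranged from 76.5% at ZT10 to 87.3% at ZT14. Replicate 10 ranged from 74.6% at ZT10 to 82.7% at ZT02. The highest and the lowest times thus were not the same in the 4 numbers, and the livers of 1 number spanned 8.12 to 17.02 percentage points. The split with replicates 9 and 10 on top did not hold at ZT22, where they had 78.9% and 75.1% and replicate 5 had 87.5%. At ZT10 replicates 5, 8, 9 and 10 lay close together, at 74.5%, 73.5%, 76.5% and 74.6%. The Bmal1-/- means ran from 74.8% ± 1.27 at ZT10 to 80.7% ± 5.13 at ZT02 (SD, n = 4 mice each), and those of wild type from 65.3% at ZT06 to 72.6% at ZT18.

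**Figure D5:**
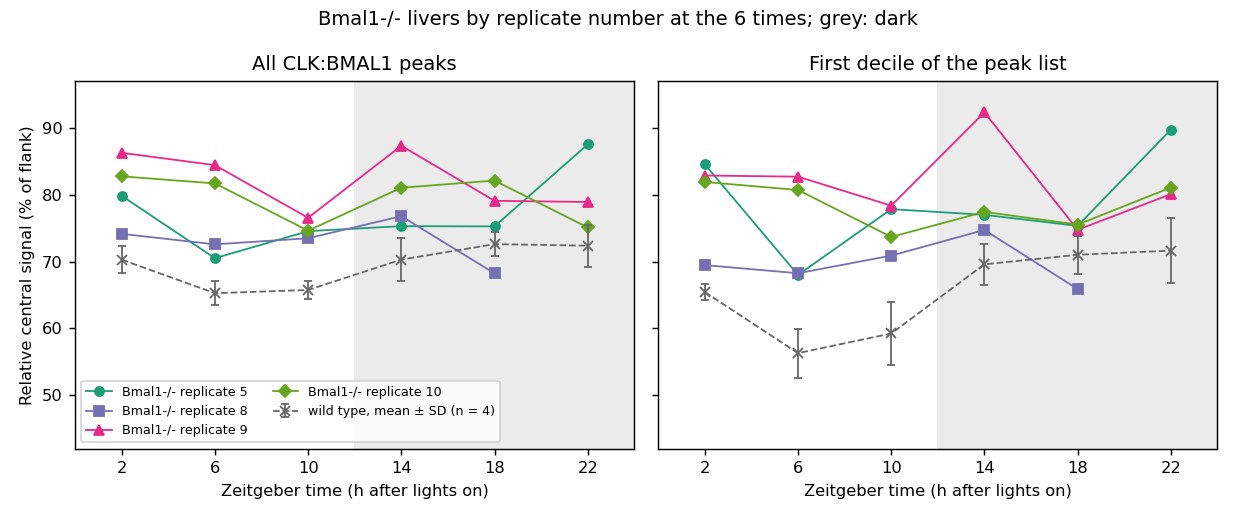
Relative central signal in percent of the flank (vertical axis) against zeitgeber time in hours (horizontal axis, grey from ZT12, lights off), for all peaks (left) and the first decile (right); coloured lines join Bmal1-/- livers of 1 replicate number (each point is 1 liver) and the dashed line is the wild-type mean ± SD (n = 4 mice per time). At ZT06 and ZT18 the Bmal1-/- means over all peaks are 77.3% and 76.2%, and those of wild type 65.3% and 72.6%.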

How the data were processed

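MNase-seq profiles of mouse liver were analysed as deposited. The values are signal, a scaled coverage that the authors averaged over each peak set, 300 positions per library and set. Per the submitters' processing notes, CASAVA 1.7, Bowtie and the mm9 build were used; what the signal was scaled to, which fragments were kept and what ranked the deciles and top sets is not stated there. The deposited peak list gives 3217 mm9 positions with 1 class each, used only for counts of peaks; the all-peak profile is named for 3216. Peak positions were not converted to another build and no sequence was read.

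Replicates 5, 8, 9 and 10 were grouped by title. Nothing in the labels says what a shared number stands for. Relative central signal, slopes and shape measures are 1 value per mouse, tested by exact two-sided permutation tests (4 against 4, numpy 2.4.6, scipy 1.17.1, Python 3.11.15), with 95% intervals by inverting the test and Benjamini-Hochberg adjustment over 28 sets or over the 5 shape measures at 0.05. The difference between genotypes was tested on 1 ZT06 minus ZT18 difference per number; the numbers serve only to form these, and limma over the 16 livers without pairing is the alternative. Profiles were fitted with limma 3.58.1 (R 4.3.3, eBayes with a trend) on percent of the flank, adjusted over 8100 rows. Neighbouring rows share fragments. Depth was read from the step that 1 fragment adds to the signal; 100% of values were whole steps within a tolerance of 0.1. Counting errors leave out all other error; without molecular identifiers, 1 molecule may be counted more than once. Both kinds of test were tried on simulated data. The rows simulated for limma were independent, so that trial does not cover the fragments, peaks and livers that real rows share. Alternatives moved the centre, the flank, the scale and the fit, used the replicate block and left out single mice. All sets are reported, with mice in full for all peaks, the first and last decile, introns, TSS and the sets of greatest and most negative difference; mice of the gene body peaks outside introns were added after their values were seen, as were the widths of the trough and the values at 200 to 400 bp. The groups and peak sets were chosen with earlier results of these data known.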

Additional observations from a re-analysis of the deposited data

Results flagged for a closer look

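In 3 of 46 groups of 4 mice, 1 mouse stood apart from the rest, and chance alone would single out some 5% of groups. Among Bmal1-/- mice at ZT18 it was replicate 8, which in decile 1 had 65.9% against 74.8% in the next mouse. Also at ZT18, Bmal1-/- replicate 10 had 80.9% in the top 25% of intergenic peaks beyond 10 kb and the nearest mouse 79.5%, a gap that is large only against the narrow range of that group. At ZT18 in wild type, replicate 11 had 65.7% in the last decile and the nearest mouse 73.9%.

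The ZT06 minus ZT18 difference was greater in Bmal1-/- than in wild type by an exact permutation test (p = 0.0286, adjusted p = 0.0727 each) in 11 sets. Along the list these were the first decile (16.8 percentage points), the second (12.4), the seventh (9.42) and the top 400 peaks (14.7). Among gene body peaks they were the top 400 (10.1) and the top 25% (10.6). Among intergenic peaks within 10 kb they were the whole class (12.8), its top 100 (18.97) and its top 25% (18.6). Among intergenic peaks beyond 10 kb they were the top 200 (14.8) and the top 25% (15.2). The sets share peaks. The change of the slope over deciles between times differed between the genotypes by -1.15 percentage points per decile (exact permutation p = 0.0286).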

How the results depend on the processing

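With 4 mice a group, the interval over all peaks includes the wild-type difference, and exact tests allow no p below 0.0286. Of the alternative values, 31 changed sign, 10 no longer passed, 3 newly passed and 22 counts moved by over 1.5 times or from 0. Most of the 22 are limma counts of sets at an adjusted p, set against the 0 of the exact test. The 31 were uncalled differences in Bmal1-/- livers, 29 of them with 1 mouse left out. Leaving out each mouse in turn moved ZT06 minus ZT18 over -1.52 to 3.39 percentage points for all peaks, -0.557 to 4.34 for the first decile, -2.89 to 5.09 for the last, -2.19 to 2.91 for introns, -6.91 to 2.86 for gene body peaks outside introns, -1.76 to 4.70 for intergenic peaks within 10 kb and -2.02 to 2.86 for those beyond 10 kb. It moved the trough minimum over -2.82 to 2.08 percentage points, flank signal over -0.0872 to 0.169, central signal over -0.171 to 0.282 and the slope over -0.089 to 0.19 per decile. Intergenic peaks beyond 10 kb gave -0.882 with the centre within 50 bp and -0.311 with the flank beyond 750 bp. The number of sets called in Bmal1-/- was 0 to 1, the 1 being the eighth decile without replicate 5 at ZT06 (5.02, exact permutation p = 0.0286).

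The difference between genotypes over all peaks was 7.06 to 10.4 without 1 number, passing without replicate 5 (10.4, exact permutation p = 0.0286). A centre of 50 bp to either side gave 9.64, at the same exact p. In the first decile it was 14.8 to 19.9. The number of sets with such a difference was 5 to 16 without 1 number, 7 with the centre within 250 bp and 10 by limma over mice without pairing. At an adjusted p it was 0 by the exact test and 6 by limma, and limma gave 0 to 13 without 1 mouse, an alternative chosen after seeing the data (2 without Bmal1-/- replicate 10 or wild-type replicate 27 at ZT06, 11 without Bmal1-/- replicate 8 at ZT06, and 9 without Bmal1-/- replicate 9 or 10 at ZT18). For the top 25% of intergenic peaks beyond 10 kb it was 16.9 with the centre within 50 bp (exact permutation p = 0.0571). The cause of these shifts was not tested.

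The replicate block made no call: over all peaks the difference stayed at 1.12 (exact sign-flip permutation p = 0.75, where 4 pairs allow none below 0.125), and limma with the block called 0 rows, with 5.14% at an unadjusted p under 0.05. Same-numbered Bmal1-/- livers correlated at 0.0933, 0.2, 0.116 and 0.178 in their deviations over the deciles, all above 0. Bmal1-/- livers of different numbers correlated at -0.288 to 0.255. In wild type, same-numbered livers correlated at 0.0308, 0.114, 0.0764 and 0.0876, also all above 0, and livers of different numbers at -0.182 to 0.21. Not every liver correlated best with its own number, so the numbers were not taken to pair the mice in tests between times. The exact tests between genotypes still form 1 difference per number.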
